A study of Rattus norvegicus with 20 samples.

Results

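The transfer of soft-primed rat mesenchymal stromal cells (MSCs) to a stiff surface was examined in 4 of the 20 RNA-seq libraries. In 2 of them (3w2→2w100) MSCs had grown for 3 weeks on 2 kPa silicone and then for 2 weeks on 100 kPa silicone. In the other 2 (5w2) MSCs had stayed on 2 kPa for all 5 weeks, with a passage every week in both groups. The 4 libraries were taken by the surface and time in their labels, and each group held replicates 1 and 2. All cultures came from the bone marrow of female Wistar rats, with each isolate taken from a single animal, and none carried a genetic change or a drug treatment. They were started directly on their gelatin-coated surface, were enriched after a first passage with magnetic beads for CD54 and CD90 to remove haematopoietic cells, and grew in medium with serum. Each isolate is thus a primary population and not a clone.

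MSCs are stromal progenitors that can give rise to bone, fat and cartilage cells. Under mechanical load they can also become myofibroblasts, contractile cells that build collagen-rich scar and carry α-smooth muscle actin in their stress fibers. Cells sense a stiff surface through integrins and the actin cytoskeleton, which pass the force on to the nucleus and to mechanosensitive transcriptional regulators such as YAP, TAZ and MRTF-A. A trait kept after the surface has changed is called mechanical memory, and comparing switched with unswitched soft-primed cells asks how far 2 weeks on the stiff surface altered what 3 weeks on the soft surface had set.

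The 5w2 libraries held 24103082 and 21907805 counts on genes and the 3w2→2w100 libraries 17906049 and 17543926, within a range of 16127907 to 24139128 over all 20 libraries. Both switched libraries were thus shallower than both unswitched ones. Genes with at least 1 count numbered 16042 and 15639 in 5w2 and 15483 and 15406 in 3w2→2w100. The share of counts taken by the 10 most abundant genes was 13.9% in 5w2 replicate 1 and 13.5% in 3w2→2w100 replicate 1, against 17.2% and 18.3% in the replicate 2 libraries of these groups. This share therefore differed with the replicate number and not with the surface. The files name genes by Ensembl identifier and do not pair these with symbols, so the marker genes of MSCs and of other cells were not checked here, and genes are given by identifier.

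No gene passed the test between switched and unswitched soft-primed MSCs. edgeR's quasi-likelihood test, in 1 model of all 8 groups, called 0 of 14034 genes (0%) at a Benjamini-Hochberg adjusted p below 0.05, and 52 genes (0.371%) had an unadjusted p below 0.05. DESeq2 also called 0, with 33 genes below the unadjusted threshold. Expression was also read in CPM, which are counts scaled to a common library size. CPM values of the groups did not overlap for 2102 genes (15%). Of these, 957 (6.82%) were higher and 1145 (8.16%) lower in both 3w2→2w100 libraries than in both 5w2 libraries. With 2 libraries in each group, many genes separate without any effect of the surface, and these counts were not tested. In bulk RNA, fewer cells of a type and less RNA per cell cannot be told apart.

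Among the genes with substantial expression, fold changes were small. The 14034 genes were split into 4 classes of equal size by their mean CPM in the 4 libraries. In the upper 3 classes, which began at 3.19 CPM, 0 genes had a fitted change of more than 2-fold, and all 414 genes past this size (2.95% of the genes tested) lay in the lowest class. Of these 414, 162 were higher and 252 lower in 3w2→2w100. For 409 of them the highest count in any of the 4 libraries was under 50, with a median of 5. The libraries of the groups overlapped in 233 of the 414 and did not in 181. Over all genes tested, 2102 of 14034 (15%) did not overlap. A large fitted change itself favours such separation. In the highest class, with a median of 102 CPM, the median size of the log2 fold change was 0.05 and the extremes were -0.61 and 0.70. The median size was 0.06 in the class below it, 0.10 in the next and 0.30 in the lowest.

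The width of the intervals depended on whether the pairing was used. Without a block, in the fit of all 20 libraries, the median half-width of the 95% confidence interval of the log2 fold change was 0.47 over all genes. It was 0.32 in the highest expression class and 1.38 in the lowest. For 9979 genes (71.1%) the whole interval lay inside a 2-fold change in either direction. This was so for 94.1% of genes in the highest class and for 18.0% in the lowest, where most intervals reached a 2-fold change. When same-numbered libraries of 1 priming surface were treated as pairs, in an edgeR fit of the 8 five-week libraries, the median half-width was 0.25 over 13112 genes. The whole interval then lay inside a 2-fold change for 11543 genes (88.0%), among them all 3509 of the highest class, and 321 genes had an unadjusted p below 0.05.

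**Figure D1:**
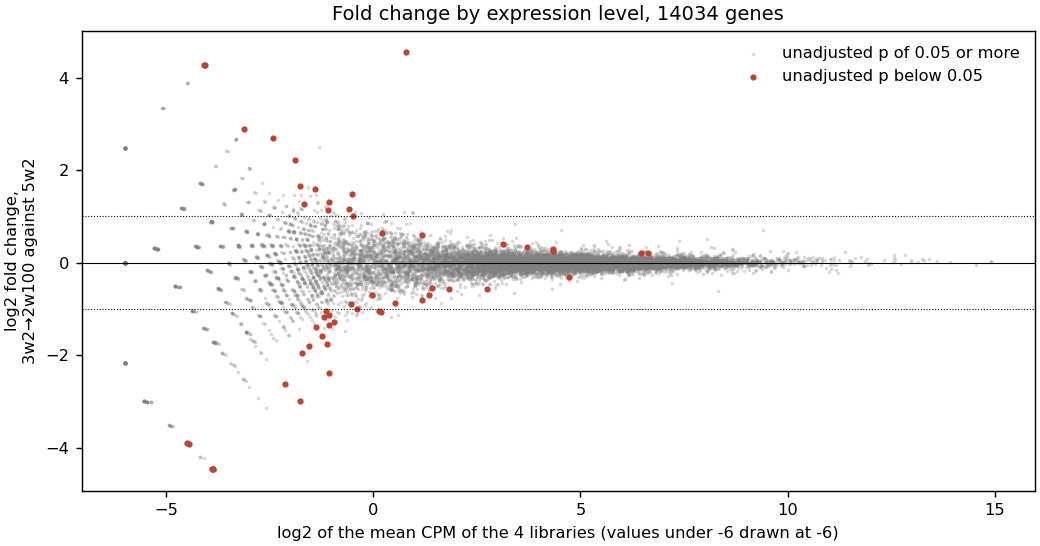
Log2 fold change of each of the 14034 genes between 3w2→2w100 and 5w2 (vertical axis) against the log2 of its mean CPM in the 4 libraries (horizontal axis). Red points are the 52 genes with an unadjusted p below 0.05, and dotted lines mark a 2-fold change, which was passed by 414 genes, all of them in the lowest expression class.

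The 4 libraries lay together by replicate number and not by surface. Distance was the Euclidean distance of log2 CPM over the 14034 genes. The replicate 1 libraries of 5w2 and 3w2→2w100 were 40.3 apart and the replicate 2 libraries 38.7. Libraries of these groups with different numbers were 80.4 and 84.0 apart. The replicates of 5w2 were 79.3 apart and those of 3w2→2w100 86.4. Same-numbered libraries on different surfaces were thus about as far apart in both pairs, and closer than replicates on one surface in every comparison. For each of the 4 libraries, the nearest of the other 19 was its same-numbered partner on the other surface.

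The starting population of the last 2 weeks, soft-primed MSCs at week 3 (3w2, 3 libraries), came next. The second nearest library to each of the 4 was the 3w2 library of its own number. The unswitched libraries were 64.7 and 62.2 from it, and the switched libraries 74.6 and 60.5. The switched library was thus farther from its 3w2 library in replicate 1 and nearer in replicate 2. From the same-numbered library grown on stiff for all 5 weeks (5w100), the 3w2→2w100 libraries were 75.5 and 118 apart, and the 5w2 libraries 72.8 and 120. The switched library was thus nearer than the unswitched one to the stiff-grown library in replicate 2 and farther from it in replicate 1.

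**Figure D2:**
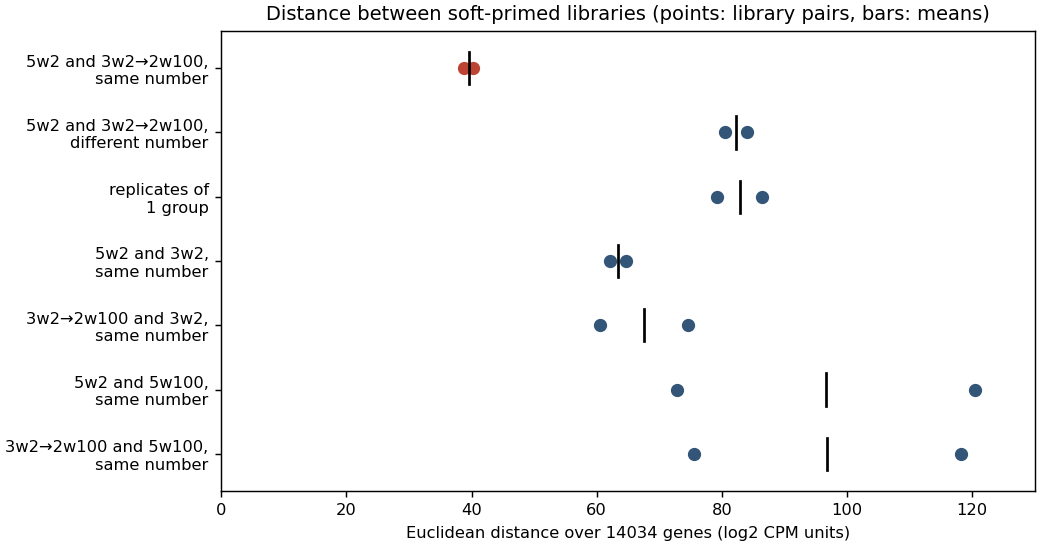
Euclidean distance between libraries over 14034 genes in log2 CPM (horizontal axis) for 7 kinds of library pair (vertical axis). Points are pairs of libraries and black bars their means, and the 2 same-numbered pairs of 5w2 and 3w2→2w100 (red) sit at 40.3 and 38.7, below all the others.

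The variation among the 4 libraries was then divided gene by gene between replicate number, current surface and the remainder, each of which has 1 degree of freedom in this layout. Summed over genes, replicate number held 79.4% of the squared deviations in log2 CPM, current surface 9.53% and the remainder 11.02%. The surface held less than the remainder, which is the part in which the 2 pairs differ in their response. Replicate number was the largest part for 8338 genes and surface for 2102. In this layout surface is the largest part only where the groups do not overlap, so this repeats the 2102 genes counted above. In the highest expression class the shares were 89.2%, 3.35% and 7.50%, and in the lowest 72.7%, 13.5% and 13.8%. The 4 libraries of stiff-primed MSCs, kept on 100 kPa (5w100) or moved to 2 kPa (3w100→2w2), gave 81.4%, 9.46% and 9.11% for the same parts.

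Most genes with a large difference between the replicates in one group had it in the other, whereas few had a large difference between the surfaces in both replicates. The log2 CPM difference between replicates 1 and 2 passed 1 in either direction for 1317 genes in 5w2 and for 1555 in 3w2→2w100. It passed 1 in both groups for 898 genes, of which 883 had the same direction and 15 the opposite. The difference between 3w2→2w100 and 5w2 passed 1 for 286 genes in the replicate 1 pair and for 307 in the replicate 2 pair. It passed 1 in both pairs for 32 genes, of which 14 had the same direction and 18 the opposite. Across the 14034 genes, the replicate difference in one group and in the other had r = 0.760, and the surface difference in one pair and in the other r = -0.071. These correlations describe genes of the same 4 libraries, which are not independent replicates. Partners and replicates were also compared for copies of 1 library, and none was found. The chi-square value per degree of freedom between partners was 11.8 in pair 1 and 6.65 in pair 2, against 86.0 between the replicates of 5w2 and 98.5 between those of 3w2→2w100.

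**Figure D3:**
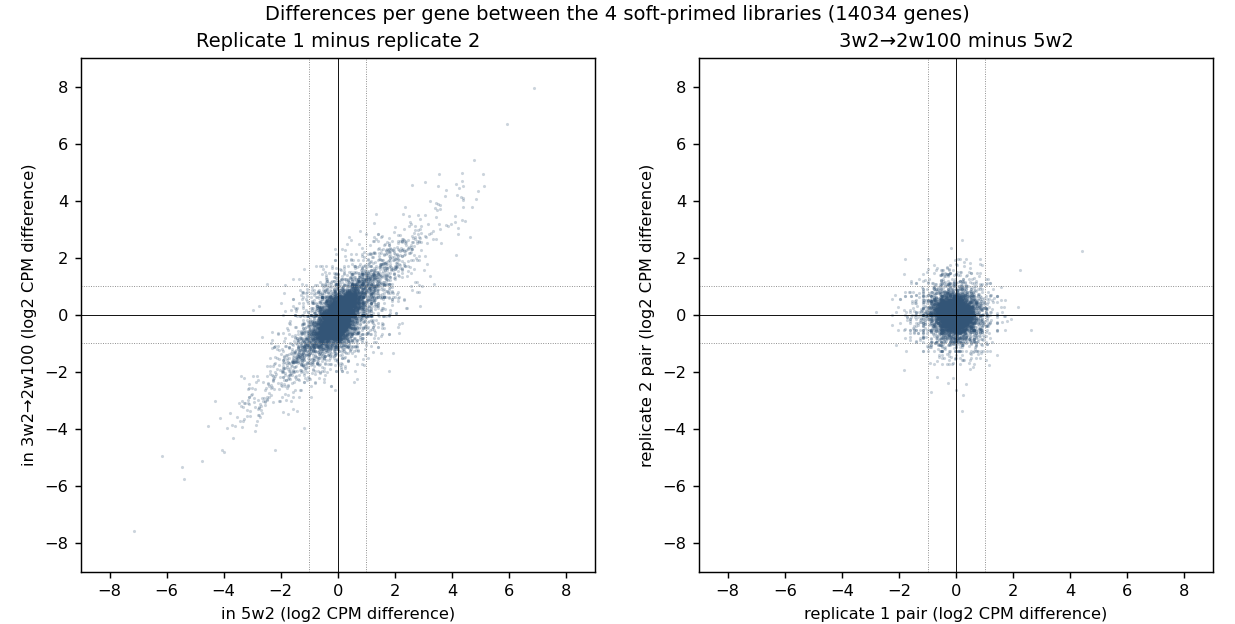
Differences in log2 CPM for 14034 genes, on the left between replicates 1 and 2 (horizontal axis in 5w2, vertical axis in 3w2→2w100) and on the right between 3w2→2w100 and 5w2 (horizontal axis in the replicate 1 pair, vertical axis in the replicate 2 pair). Dotted lines mark 2-fold differences, and the left cloud follows the diagonal with r = 0.760 where the right one is round with r = -0.071.

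Since the same-numbered libraries deviated together, the switch was also tested within pairs. With the replicate number as a block over all 20 libraries, edgeR called 0 genes (0%). With each pair of 1 priming surface and 1 number as a block, it called 2 of 13112 genes (0.0153%) on the 8 five-week libraries. On all 20 libraries it called 0, but there only the five-week libraries were paired. The week 1 and week 3 libraries had a term for their group and no block. On only the 4 soft-primed libraries with the number as a block, a fit with 1 residual degree of freedom, edgeR and DESeq2 each called 1 of 12603 genes (0.00793%). The text names the genes of these fits and, from the test without a block, the gene with the smallest p in each direction among those of at least 1 CPM whose groups did not overlap.

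ENSRNOG00000017640 was the gene called by all 3 of these paired fits that made calls. It had 4 and 2 counts in the 5w2 libraries and 99 and 14 in the 3w2→2w100 libraries, or 0.173 and 0.0958 CPM against 5.78 and 0.847 CPM. Both switched libraries were above both unswitched ones, and replicate 1 was far above replicate 2 among the switched. The log2 fold change was 4.55 without a block, with a standard error of 1.43, a 95% confidence interval from 1.498 to 7.60 and an edgeR adjusted p of 1. With pairs as a block on the 8 five-week libraries it was 4.56, with a standard error of 0.64 and an edgeR adjusted p of 0.000147. DESeq2 on the 4 libraries gave it an adjusted p of 0.0197. The call rested on the replicate 1 pair, since without it the log2 fold change was 3.06 with an edgeR adjusted p of 0.285. The 3w2 libraries had 45, 69 and 93 counts (2.08, 4.42 and 4.37 CPM). Against these, the switched replicate 1 library was higher, the switched replicate 2 library lower and both 5w2 libraries lower still. In stiff-primed cells the groups overlapped. The 5w100 libraries had 37 and 11 counts and the 3w100→2w2 libraries 9 and 52, with the higher value on the stiff surface in replicate 1 and on the soft surface in replicate 2.

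ENSRNOG00000019648, an abundant transcript, was called as lower on the stiff surface by 1 of these fits. It stood at 559 and 215 CPM in 5w2 and at 349 and 158 CPM in 3w2→2w100. The groups overlapped, since replicate 1 was above replicate 2 on both surfaces, and within each number the switched library was the lower one. The log2 fold change was -0.55 (standard error 0.11) with pairs as a block on the 8 five-week libraries, with an edgeR adjusted p of 0.0498. With the number as a block on the 4 libraries the edgeR adjusted p was 0.0777, and without a block it was 1. The 3w2 libraries stood at 347, 220 and 341 CPM, so that 5w2 replicate 1 lay above all 3 of them and both replicate 2 libraries below all 3. In the same fit the edgeR adjusted p was 0.0768 without the soft-primed replicate 1 pair, 0.00638 without the soft-primed replicate 2 pair, and 0.0522 and 0.0758 without the stiff-primed pairs. Without a block, leaving out 5w2 replicate 1 turned the log2 fold change to 0.24. The stiff-primed libraries had the same order within numbers, at 193 and 28.4 CPM in 5w100 and 285 and 62.2 CPM in 3w100→2w2. The level was therefore lower on the 100 kPa surface in 4 of 4 same-numbered pairs, as it was for 976 of all 14034 genes (6.95%). The gene was chosen by its call in the soft-primed pairs, so only the direction in the stiff-primed pairs played no part in the choice.

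Among the remaining non-overlapping genes of at least 1 CPM that were higher in the switched cells, ENSRNOG00000060185 had the smallest p without a block. It stood at 91.6 and 91.8 CPM in 5w2 and at 109 and 102 CPM in 3w2→2w100. The groups did not overlap, which the choice of this gene required. The 3w2 libraries, at 90.7, 91.2 and 88.9 CPM, lay at the level of 5w2. The log2 fold change was 0.20 (standard error 0.07, unadjusted p = 0.0138, edgeR adjusted p = 1), a 1.15-fold difference, and none of the fits called it. In stiff-primed cells it stood at 89.7 and 88.4 CPM in 5w100 and at 85.0 and 84.1 CPM in 3w100→2w2, so that it was again higher on the stiff surface in both pairs.

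Among non-overlapping genes of at least 1 CPM that were lower in the switched cells, ENSRNOG00000023446 had the smallest p without a block. It had 34 and 34 counts in 5w2 and 16 and 9 in 3w2→2w100, or 1.47 and 1.63 CPM against 0.934 and 0.544 CPM. The groups did not overlap, which the choice of this gene required. Of the 3w2 libraries, at 0.970, 1.92 and 1.22 CPM, 1 lay above both 5w2 libraries and the other 2 between the groups. The log2 fold change was -1.06 (standard error 0.44, unadjusted p = 0.0286, edgeR adjusted p = 1), and none of the fits called it. In stiff-primed cells it stood at 0.916 and 0.985 CPM in 5w100 and at 1.24 and 1.25 CPM in 3w100→2w2, so that it was lower on the stiff surface in those pairs too.

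**Figure D4:**
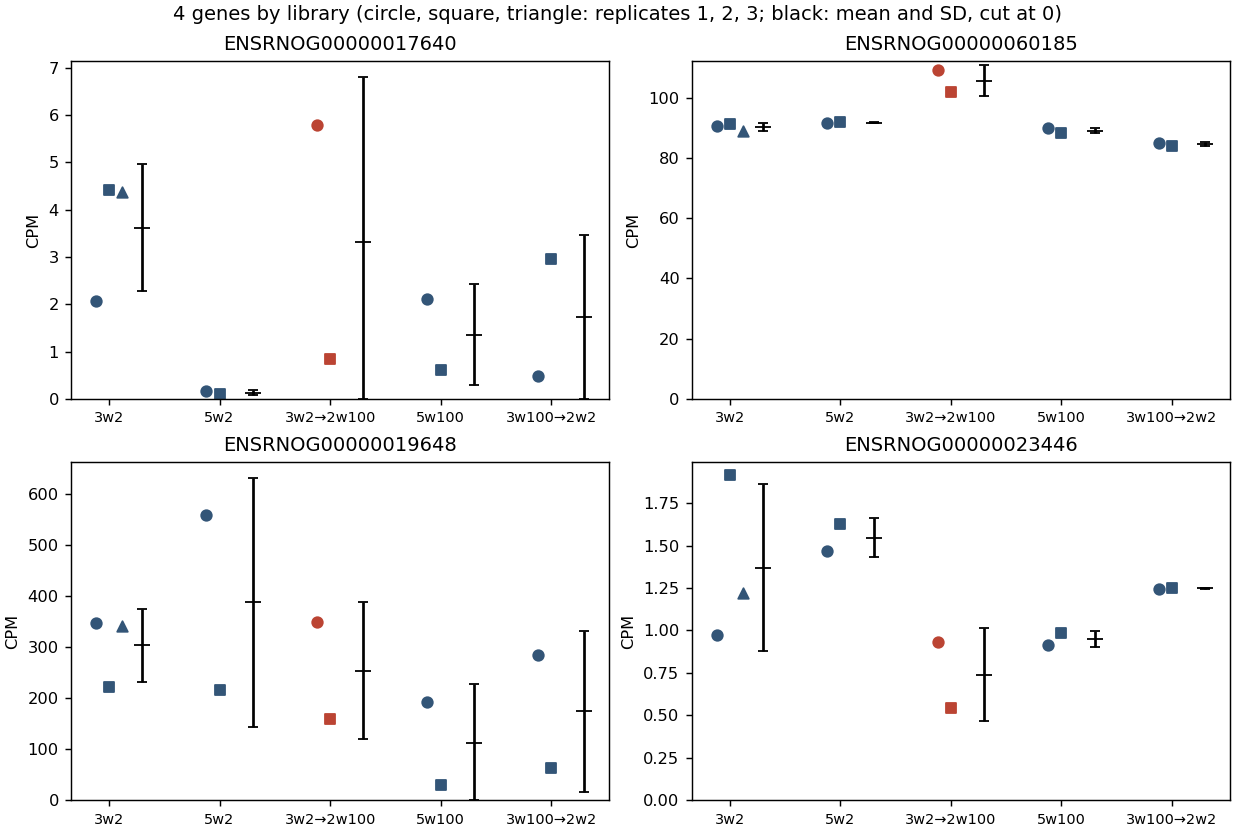
CPM of 4 genes (vertical axes, from 0) by library in 5 groups (horizontal axes), with 3w2→2w100 in red. Symbols are replicates and black bars are means with SD. ENSRNOG00000017640 is near 0 in both 5w2 libraries and at 5.78 and 0.847 CPM in the switched ones, and ENSRNOG00000019648 differs more between replicates than between surfaces.

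The other genes at the head of the list changed by modest amounts. The 10 genes with the smallest p among those higher in both switched libraries and in both pairs, with at least 1 CPM, had log2 fold changes of 0.20 to 4.55, and 9 of them were under 2-fold. The 10 on the other side had log2 fold changes of -1.06 to -0.30, and 8 were under 2-fold. All 20 had an edgeR adjusted p of 1. Patterns of 0 counts were read over all 30560 genes listed, before the filter on low counts, and not over the genes tested. Of the 30560, 67 were at 0 in both 5w2 libraries and had counts in both 3w2→2w100 libraries, and 215 had the reverse pattern. In none of them did both libraries of the detected group reach 10 counts. The 5w2 libraries were the deeper ones, and the part of depth in this imbalance was not tested.

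The genes called from one soft-primed pair mostly had the opposite direction in the other. When the paired fit on the five-week libraries was run without the soft-primed replicate 2 pair, it called 44 of 13387 genes (0.329%) on the replicate 1 pair, 5 higher and 39 lower in the switched library. These genes had a median of 70.6 CPM, and their median change in the called direction was 0.67 on the log2 scale in that pair, which chose them. In the replicate 2 pair, which was not used to choose them, 38 of the 44 had the opposite direction and 6 the same, with a median of -0.21. Over all genes tested, 39.5% had the same sign in both pairs. Without the soft-primed replicate 1 pair, 17 of 13391 genes (0.127%) were called, 15 higher and 2 lower. Of these, 13 had the opposite direction in the replicate 1 pair and 4 the same. Their median was -0.18 there, against 0.67 in the pair that chose them. Both lists were also read in MSCs grown for 3 weeks on 100 kPa minus 3w2, libraries that chose neither list. The called direction was kept there by 38 of the 44 genes, with a median of 0.27, and by 11 of the 17, with 0.32. Most calls in each list had 1 direction, and the share of all genes with that direction in these libraries was not computed. Whether the counts depart from that share was not tested. In stiff-primed pairs 1 and 2 the medians were 0.12 and 0.39 for the first list and 0.12 and 0.03 for the second. Without stiff-primed pair 1 the fit called 1 of 13357 genes (0.00749%), and without stiff-primed pair 2 it called 1 of 13112 (0.00763%). Each fit that left out a soft-primed pair compares 1 switched library with 1 unswitched one and takes the spread from the stiff-primed pairs, so that the surface and any other difference between these cultures cannot be told apart.

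**Figure D5:**
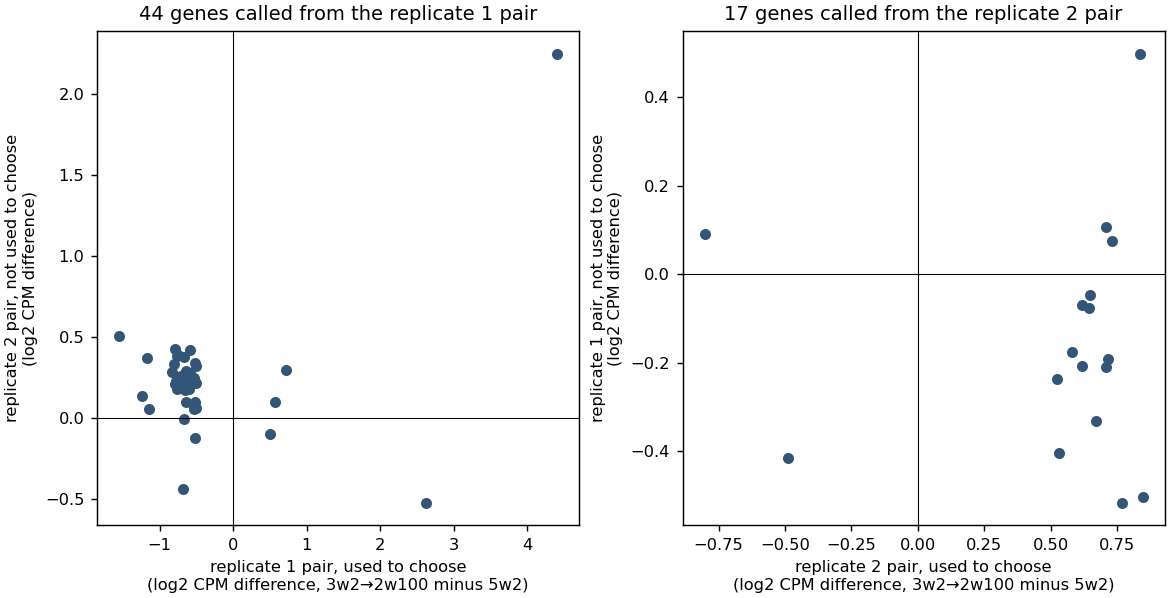
Log2 CPM difference between 3w2→2w100 and 5w2 for the 44 genes called from the replicate 1 pair (left) and the 17 called from the replicate 2 pair (right). The horizontal axis is the pair that chose the genes and the vertical axis the other pair, in which 38 of 44 and 13 of 17 genes had the opposite direction.

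Genes ranked by surface in other libraries were then followed through the switch. Between 3w2 and 3w100 (3 weeks on 100 kPa) edgeR called 0 genes (0%) at an adjusted p below 0.05. At an unadjusted p below 0.05 there were 863 (6.15%), of which 404 were higher and 459 lower on the stiff surface, with median log2 fold changes of 0.54 and -0.53 in the comparison that chose them. After the switch the median log2 fold change of the first list was 0.03 and that of the second -0.05, against 0.00 over all genes tested, and 0 genes of either list were called. In the replicate 1 pair these medians were 0.06 and -0.13, in the direction of the stiff surface, with 61.4% of the first list and 27.9% of the second above 0, against 47.9% of all genes. In the replicate 2 pair they were -0.01 and 0.04, with 42.8% and 60.1% above 0, against 48.4% of all genes. The medians thus had the sign of the stiff surface in replicate 1 and the opposite sign in replicate 2.

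Soft-primed and stiff-primed cells were compared in their response to the current surface, written as 100 kPa minus 2 kPa in both. For 5w100 over 3w100→2w2 no gene was called by edgeR (0%), and 87 (0.62%) had an unadjusted p below 0.05. The 26 of these that were higher on stiff had a median log2 fold change of 0.08 in the soft-primed cells, with 17 (65.4%) above 0 against 48.6% of all genes. The 61 that were lower had a median of -0.07, with 38 (62.3%) below 0 against 50.1% of all genes. In the replicate 1 and 2 pairs, 53.8% and 57.7% of the first list and 31.1% and 45.9% of the second were above 0. In all 4 pairs, 941 genes (6.71%) were higher on the stiff surface and 976 (6.95%) lower. Such counts also arise without any effect of the surface, and they were not tested. The test of the difference between the responses called 0 of 14034 genes (0%). At an unadjusted p below 0.05 there were 50 (0.356%), and 0 genes were called by DESeq2. With pairs as a block on the 8 five-week libraries it called 1 of 13112 genes (0.00763%), which was ENSRNOG00000017640.

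For scale, log2 fold changes over all genes had an SD of 0.41 after the soft-to-stiff switch and of 0.38 for 5w100 over 3w100→2w2. Between 3w100 and 3w2 it was 0.50. Between 5w100 and 5w2, a comparison that uses the same 5w2 libraries, it was 0.89, and between 3w2 and 1w2 (1 week on 2 kPa) 1.03. These values include the noise of lowly expressed genes and the spread between libraries. Replicate differences were shared within a priming surface (r = 0.760 and 0.802) but weakly across (0.168 to 0.245), and 5w100 over 5w2 crosses priming surfaces. Week 1 and week 3 groups held 3 libraries each and five-week groups 2. The SDs are therefore not like measures of the effect of surface or time. The genes that had risen from week 1 to week 3 on the soft surface, 523 at an edgeR adjusted p below 0.05 (3.73% of the genes tested), had a median log2 fold change of 0.03 after the switch, with -0.01 in the replicate 1 pair and 0.07 in the replicate 2 pair. Of these genes 62.1% were above 0, with 47.8% in the replicate 1 pair and 70.6% in the replicate 2 pair. Over all genes tested these shares were 48.6%, 47.9% and 48.4%. The 604 genes that had fallen (4.3%) had a median of 0, with 32.8% above 0, 44.5% below it and 94 past a 2-fold change. Over all genes tested, 48.6% were above 0, 50.1% below it and 414 (2.95%) past a 2-fold change. All 414 lay in the lowest expression class.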

How the data were processed

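Bulk RNA-seq counts of 20 libraries in 8 groups were used, and groups and replicate numbers came from the labels. The authors trimmed reads with TrimGalore!, checked them with FastQC, mapped them with HISAT2 to rat build rn7, assigned them to genes with FeatureCounts, and deposited raw counts. Libraries came from a stranded mRNA kit. Tool versions and the settings of FeatureCounts for strand and multi-mapped reads were not given in the labels or methods. Values of genes that overlap or have a near-identical copy are therefore uncertain. Of 30560 rows, 0 lack a gene.

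The main test was that of edgeR 4.0.16 under R 4.3.3 (TMM factors, filterByExpr with a minimum count of 10 and a total of 15, quasi-likelihood test on 8 groups without a block), with DESeq2 1.42.0 as an alternative. Log2 CPM values use a prior count of 2. Standard errors are the fold change over the square root of F. Scripts were tested on simulated data. The study states that replicates are MSCs of different rats, and the labels do not, so p-values measure the spread between these libraries.

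The numbers were taken as pairs because, among the 4 five-week groups, the replicate differences correlated in all 6 pairs of groups. Within a priming surface r was 0.760 for soft-primed and 0.802 for stiff-primed groups. Across priming surfaces r was only 0.168 to 0.245, so that a number was weakly shared between them. The pairing comes from the data. The labels do not tie a number to a rat.

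The rule for named genes took lists by symbol, which could not be matched, the 10 smallest p values in each direction, and genes called in paired fits. At most 2 identifiers in each direction are given. The comparison, gene lists and rule were chosen with earlier results of these data known. Alternatives were RLE factors, other filters, other sets of libraries, blocks, DESeq2, thinning to 16127907 counts and leaving out libraries.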

Additional observations from a re-analysis of the deposited data

Results flagged for a closer look

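ENSRNOG00000017640 met the test of a difference between soft-primed and stiff-primed cells in 1 of the fits. Its response to the stiff surface was 4.83 higher on the log2 scale in soft-primed cells with pairs as a block on the 8 five-week libraries (standard error 0.83, edgeR adjusted p = 0.0103), and 4.89 without a block (edgeR adjusted p = 1). It rests on 4 and 2 counts in 5w2, and in soft-primed cells it was higher on the stiff surface in 2 of 2 pairs. The cause was not tested.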

How the results depend on the processing

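The count of 0 genes between 3w2→2w100 and 5w2 was also given by RLE factors, both other filters, DESeq2, fits of the 4 or 8 libraries without a block, thinning, and the blocks on all 20 libraries. It was 1 with the replicate number as a block on the 4 libraries in edgeR and in DESeq2, and 2 with priming pairs as a block on the 8 libraries. Leaving out 1 library or pair gave 0 to 44. Each of the counts above 2 left out a soft-primed pair (44 without replicate 2 and 17 without replicate 1), an alternative chosen after seeing the data. It was 1 without either stiff-primed pair. A lone library in a group was taken to vary as the other groups do. The difference between soft-primed and stiff-primed responses was 0 and became 1 with priming pairs as a block on the 8 libraries. Leaving out single libraries gave 0 to 0 genes. The blocks changed no other call. The distance between same-numbered libraries was 0.477 of that between replicates, and 0.542 and 0.441 with prior counts of 0.5 and 5. The log2 fold change of ENSRNOG00000017640 lay between 2.59 and 5.35 over 20 alternatives, with adjusted p from 7.55e-17 to 1. That of ENSRNOG00000019648 turned to 0.24 without 5w2 replicate 1, in a range from -1.29. Medians of gene lists by symbol were not run. With 2 libraries a group, low counts limit the lowest expression class.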
